A study of Homo sapiens with 6 samples.

Results

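Transforming growth factor beta (TGF-beta) is a secreted signal that is stored outside the cell in a latent form and freed by other proteins. The freed ligand binds the type II receptor, which activates a type I receptor, and the activated receptors phosphorylate SMAD proteins that enter the nucleus and change transcription. In the liver the pathway is known for restraining hepatocyte growth and for driving scar formation by stellate cells, in which actin and matrix genes are well-known targets. The 7 genes described here cover these steps: TGFBR2, the type II receptor; TGFB1, a ligand; THBS1, thrombospondin 1, which can free the latent ligand; and the target genes TAGLN, ACTA2, SPARC and CTGF. These are 7 of the 1998 genes in the authors' deposited table, which lists genes with an adjusted p under 0.05. They were chosen by name and selected on the fold changes and adjusted p-values given there, so their changes are a description and were not tested again.

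The data came from HepG2, a human liver cancer cell line that keeps many hepatocyte functions. One group received siRNA to H19 (siH19, 3 libraries) and the other a control siRNA (siCon, 3 libraries), by transfection, and all were collected after 48 h in the line's usual serum-containing medium. H19 is a long noncoding RNA of an imprinted locus, and lowering it in these cells addresses what its loss does to the transcriptome. All 6 libraries were made from total RNA depleted of ribosomal RNA, and the authors' deposited table gives 1 value per gene and group. H19 itself was not among the 1998 listed genes analysed here, so the targeted RNA gives no check of the labels and how far the siRNA lowered it is unknown. Single libraries were not analysed here. Since nothing in the labels tells separate cultures from repeats of 1 culture, the deposited SEs and adjusted p-values may measure technical spread.

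Receptor, ligand and target genes moved apart. In cells with the H19 siRNA the receptor TGFBR2 and the targets ACTA2 and CTGF were lower, and the ligand TGFB1, its activator THBS1 and the targets TAGLN and SPARC were higher. That is 3 lower and 4 higher genes. Of all 1998 listed genes, 1105 (55.3%) were lower and 893 (44.7%) higher in siH19 in the authors' deposited table, and nothing is read from the members' split since the same contrast chose them. The share called among all genes tested was not analysed here, since only called genes are listed, with adjusted p up to 0.0498. CTGF lies nearest to that limit among the 7, at 0.00693 in the authors' deposited table.

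Short sequences from these genes and from microRNAs tied to H19 are shown first, because they had no part in the choice of the 7 genes. H19 RNA is the host transcript of miR-675 and can bind let-7 microRNAs. A microRNA pairs with a target mostly through its seed, bases 2 to 8, which are in capitals in these mature sequences from RefSeq (GRCh38.p14).
hsa-let-7a-5p: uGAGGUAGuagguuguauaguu
hsa-miR-675-5p: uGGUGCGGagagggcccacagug
hsa-miR-675-3p: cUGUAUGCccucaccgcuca

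The 3' untranslated regions (UTRs) of the 7 genes were searched on the transcript strand for the words that pair with those seeds. CTACCTC, the match to the let-7a seed, was in none of the 7, against 8.13% of 18861 coding genes in GENCODE release 29. CCGCACC, the match to miR-675-5p, was also in none, against 3.21% of the coding genes. GCATACA, the match to miR-675-3p, was in SPARC alone, from base 1202 of a 3' UTR of 2475 bases, against 5.34% of the coding genes. SPARC was higher in siH19. Of the 1915 listed genes with a searched 3' UTR, 53.6% of the 140 that hold GCATACA were lower, against 54.8% of those without it. The next window shows the SPARC match in capitals within 30 bases of the transcript.
SPARC: aaaacacatgaGCATACAtgtctacacatg

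A further word, CATCAAA, was searched because earlier work on the same table had tied it to falling genes, so its link to direction is no independent support. Of the 294 listed genes that hold it 74.5% were lower in siH19, against 51.1% of the 1621 listed genes without it. The 7 genes hold it in TGFBR2 and THBS1, which moved in opposite directions. In TGFBR2 it starts at base 388 of a 3' UTR of 2535 bases. No other listed gene that holds the word fell as far as TGFBR2. TGFBR2 ranked 4 among the falls of all 1998 listed genes, so its place among the holders is not tied to the word. In THBS1 it starts at base 2 of a 3' UTR of 4097 bases, 1 base behind the stop codon. CATCAAA was in 9.70% of the coding genes, and GCAGTAC, a word tied to rising genes in the same way, was in none of the 7 and in 3.72% of the coding genes. None of 2545 human mature microRNAs in the RefSeq table has a seed that pairs with CATCAAA or with GCAGTAC. That search covered microRNAs only, and pairing of the transfected siRNAs themselves with either word was not tested. Capitals mark CATCAAA in these 30-base windows.
TGFBR2: acaaggaaaaaCATCAAAtattcccaggaa
THBS1: tCATCAAAttgttgattgaaagactgatca

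The share of lower genes did not climb with the number of CATCAAA matches. It was 76.6% for 239 genes with 1 match, 69.8% for 43 genes with 2 matches and 50% for 12 genes with 3 to 6 matches, a class too thin to read. TGFBR2 and THBS1 have 1 match each. Across the 43 listed genes of the pathway lists described below, CATCAAA was found in 5: TGFBR2 and CDKN1A, which were lower, and SMAD2, THBS1 and PPM1A, which were higher.

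TGFBR2, on chromosome 3, is the receptor kinase that binds the ligand first, and its change was the largest of the 7. Its normalized count, on the linear scale, was 3281 in siH19 and 9216 in siCon, computed from log2 counts of 11.68 and 13.17 for siH19 and siCon in the authors' deposited table. By the deposited log2 fold change, the count in siH19 differed from that in siCon by -64.2%. In the authors' deposited table the log2 fold change was -1.48 ± 0.07 (SE), a 2.79-fold fall, with an adjusted p written as 0, which means below the table's precision. It ranked 4 among the falls of the 1998 listed genes by size.

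Divided by its SE, the TGFBR2 change came to -21.1, first of all 1998 listed genes by absolute value. The gene in second place, HIPK3, reached 14.0 in absolute value. Counting error alone, for 3 libraries at these normalized counts, would give an SE of 0.0169 for TGFBR2, so the deposited SE of 0.07 exceeds it. This calculation takes the normalized counts as read counts, as no library totals were at hand.

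**Figure D1:**
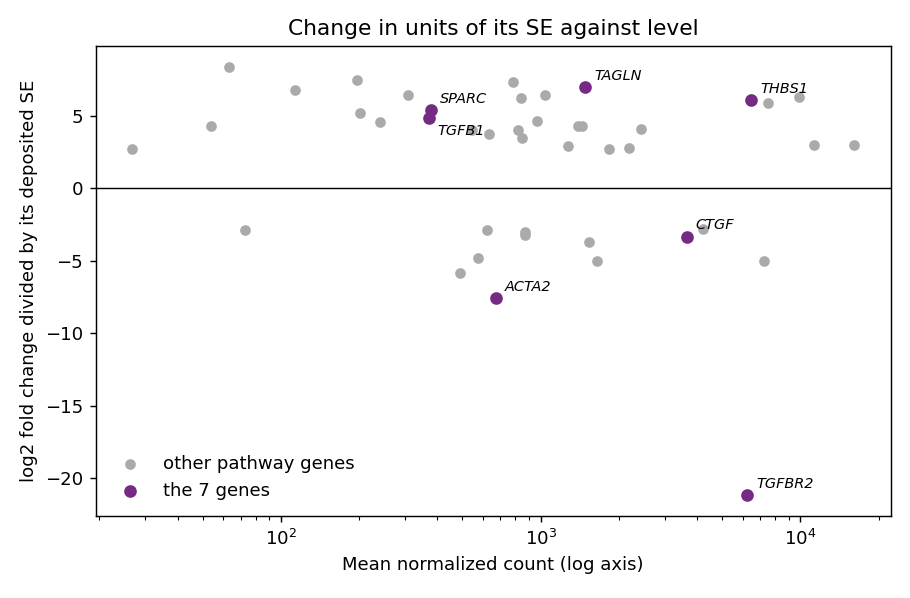
Each point is a listed pathway gene, with its mean normalized count on the horizontal log axis and its log2 fold change (siH19 over siCon) divided by its deposited SE on the vertical axis; purple points are the 7 genes and grey points the other 36 listed pathway genes. TGFBR2 stands at -21.1, far below ACTA2 at -7.55 and CTGF at -3.33, while the 4 higher genes lie at 4.83 or above.

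TGFB1, on chromosome 19, encodes the ligand TGF-beta 1, which is made as a latent precursor. It had a normalized count of 446 in siH19 and 298 in siCon. An exon of TGFB1 overlaps HNRNPUL1, which is not among the listed genes. In the authors' deposited table it rose by 0.58 ± 0.12 (SE) on the log2 scale, 1.49-fold, with an adjusted p of 1.5e-05.

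THBS1, on chromosome 15, encodes a large secreted glycoprotein that can free latent TGF-beta and is itself a target of the pathway. Its normalized count was 7697 in siH19 and 5257 in siCon. In the authors' deposited table it rose by 0.55 ± 0.09 (SE), 1.46-fold, with an adjusted p written as 0. The ligand and its activator thus moved in the same direction, and their changes differed by 0.03 on the log2 scale, less than either SE. THBS1 exons overlap FSIP1 and AC037198.2, neither of them listed.

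Ligand and receptor counts drew closer. TGFBR2 had 7.36 times the normalized count of TGFB1 in siH19 and 30.9 times in siCon. The count ratio of THBS1 to TGFBR2 was 2.35 in siH19 and 0.570 in siCon. These ratios compare counts of transcripts of unequal length and are read across groups only. Their shifts between groups follow from the fold changes on which the 7 genes were selected, so they are no separate result.

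TAGLN, transgelin, on chromosome 11, is an actin-binding protein of contractile cells. Its normalized count was 1911 in siH19 and 1067 in siCon. The authors' deposited table gave it the largest rise of the 7, 0.84 ± 0.12 (SE), 1.79-fold, with an adjusted p written as 0. TAGLN overlaps PCSK7, a proprotein convertase gene on the opposite strand, in exons of both genes. PCSK7 was itself higher in siH19, by 0.36 ± 0.13 (SE) in the authors' deposited table, with an adjusted p of 0.04. The library kit keeps strand, but how strand entered the counting is not given in the sources used here, and the part of shared reads in either rise was not tested.

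ACTA2, on chromosome 10, encodes smooth muscle actin alpha, the usual marker of activated stellate cells, and it moved opposite to TAGLN. Its normalized count was 484 in siH19 and 861 in siCon. In the authors' deposited table the log2 fold change was -0.83 ± 0.11 (SE), a 1.78-fold fall, with an adjusted p written as 0. The ratio of TAGLN to ACTA2 counts was 3.94 in siH19 and 1.24 in siCon, since both genes moved by a similar size in opposite directions. ACTA2 belongs to a family of actins with nearly the same protein. None of the 1274 stretches of 76 bases in its transcript occurs in a transcript of another gene in GENCODE release 29. Only exact matches were compared, so reads of other actins that align with mismatches were not covered. ACTA2 also overlaps exons of ACTA2-AS1 and FAS on the opposite strand, and neither of these is among the listed genes.

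SPARC, on chromosome 5, encodes osteonectin, a collagen-binding glycoprotein of the matrix. Its normalized count was 461 in siH19 and 294 in siCon. In the authors' deposited table it rose by 0.65 ± 0.12 (SE), 1.57-fold, with an adjusted p of 4e-06. CTGF, connective tissue growth factor, now named CCN2, on chromosome 6, is a secreted matrix protein and a direct target of both SMAD and YAP/TEAD signalling. Its normalized count was 3259 in siH19 and 4040 in siCon. The authors' deposited table gave CTGF the smallest change of the 7, -0.30 ± 0.09 (SE), a 1.23-fold fall. SPARC and CTGF overlap exons of CLMAT3 and AL133346.1, which are not listed. The matrix genes SPARC, THBS1 and CTGF thus split 2 higher to 1 lower.

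**Figure D2:**
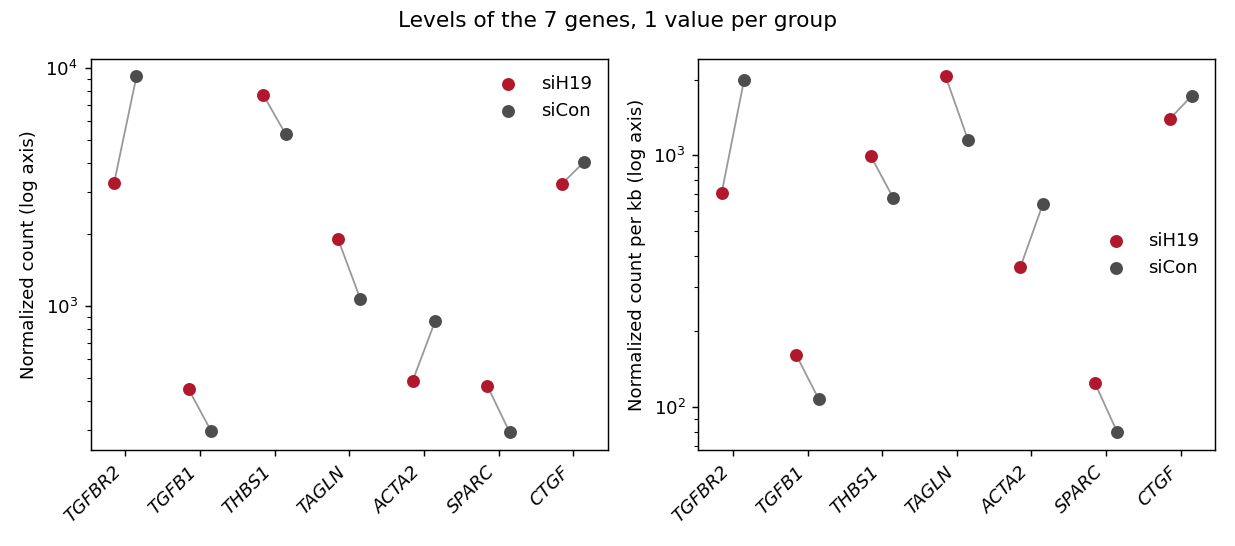
Normalized counts of the 7 genes (left) and the same counts per kb of transcript (right), both on log axes, with siH19 in red to the left of siCon in grey, 1 combined value per group without an error. TGFBR2, ACTA2 and CTGF slope upward from siH19 to siCon and the other 4 genes slope downward.

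Levels of different genes can be compared only per length. Per kb of transcript, the normalized count in siH19 was highest for TAGLN at 2059, followed by CTGF at 1393, THBS1 at 990, TGFBR2 at 710, ACTA2 at 359, TGFB1 at 161 and SPARC at 125. In siCon the per-kb order was led by TGFBR2 at 1994, followed by CTGF at 1727, TAGLN at 1150, THBS1 at 676, ACTA2 at 638, TGFB1 at 108 and SPARC at 79.5. Per kb, THBS1 stood above TGFBR2 in siH19 and below it in siCon, and TAGLN led the 7 in siH19 and stood behind TGFBR2 and CTGF in siCon. TGFB1 and SPARC were the lowest in both groups. Each length is that of 1 transcript per gene, from 928 bases for TAGLN to 7775 for THBS1, and the transcript forms present in HepG2 were not analysed here. The group values carry no error of their own, so close neighbours such as THBS1 and ACTA2 in siCon, and TGFB1 and SPARC in either group, are not told apart.

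**Figure D3:**
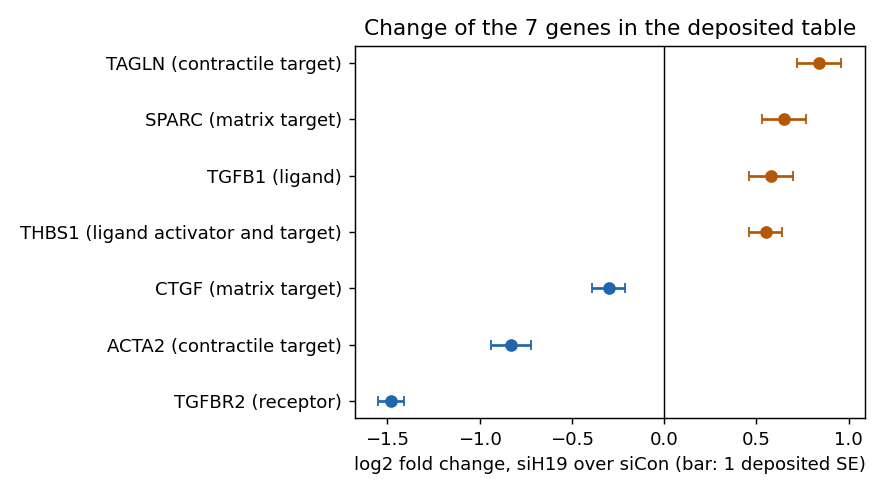
Log2 fold change of each of the 7 genes, siH19 over siCon, with bars of 1 deposited SE on each side; orange points are higher and blue points lower in siH19. The bars of THBS1, TGFB1 and SPARC overlap, and that of TAGLN overlaps the bar of SPARC. Those of TGFBR2, ACTA2 and CTGF are separate from each other and from the rest.

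In the order of changes some neighbours were not separated by their errors. From the authors' deposited table, SPARC and TGFB1 differed by 0.07 and TGFB1 and THBS1 by 0.03 on the log2 scale, against SEs of the difference of 0.17 and 0.15 if the errors are independent. TAGLN exceeded SPARC by 0.19, against 0.17. The falling genes were spread wider: ACTA2 lay 0.65 above TGFBR2 (SE 0.13) and CTGF 0.53 above ACTA2 (SE 0.14). For all 7 the deposited SE was larger than counting error alone would give, which was at most 0.0623, for TGFB1.

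The nearest listed gene to each of the 7, by Euclidean distance in its pair of log2 group values, was ENAH for THBS1, OSGIN2 for TGFB1, ITIH5 for SPARC, LSM14A for TAGLN, ADH6 for ACTA2 and MTDH for CTGF. Their distances ran from 0.0141 for MTDH to 0.153 for LSM14A. TGFBR2 had no such close neighbour: the nearest, PEBP1, lay 0.543 away, with a log2 fold change of -0.85 ± 0.09 (SE) in the authors' deposited table. With 2 group values per gene this is a weak measure of likeness.

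The rest of the pathway was described from 11 lists of 172 symbols. The authors' deposited table held 43 of these genes, 30 higher and 13 lower in siH19. Over all 1998 listed genes 44.7% were higher and 55.3% lower. The median log2 fold change of the 43 was 0.39, against -0.27 over all 1998. Because the lists were chosen with earlier results of these data known, these splits and medians, and those of single lists below, are no independent support. Leaving out the 7 genes, 26 pathway genes were higher and 10 lower, with the same median of 0.39. Whether a symbol that is not listed was expressed or changed was not analysed here, so counts describe the listed genes only.

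**Figure D4:**
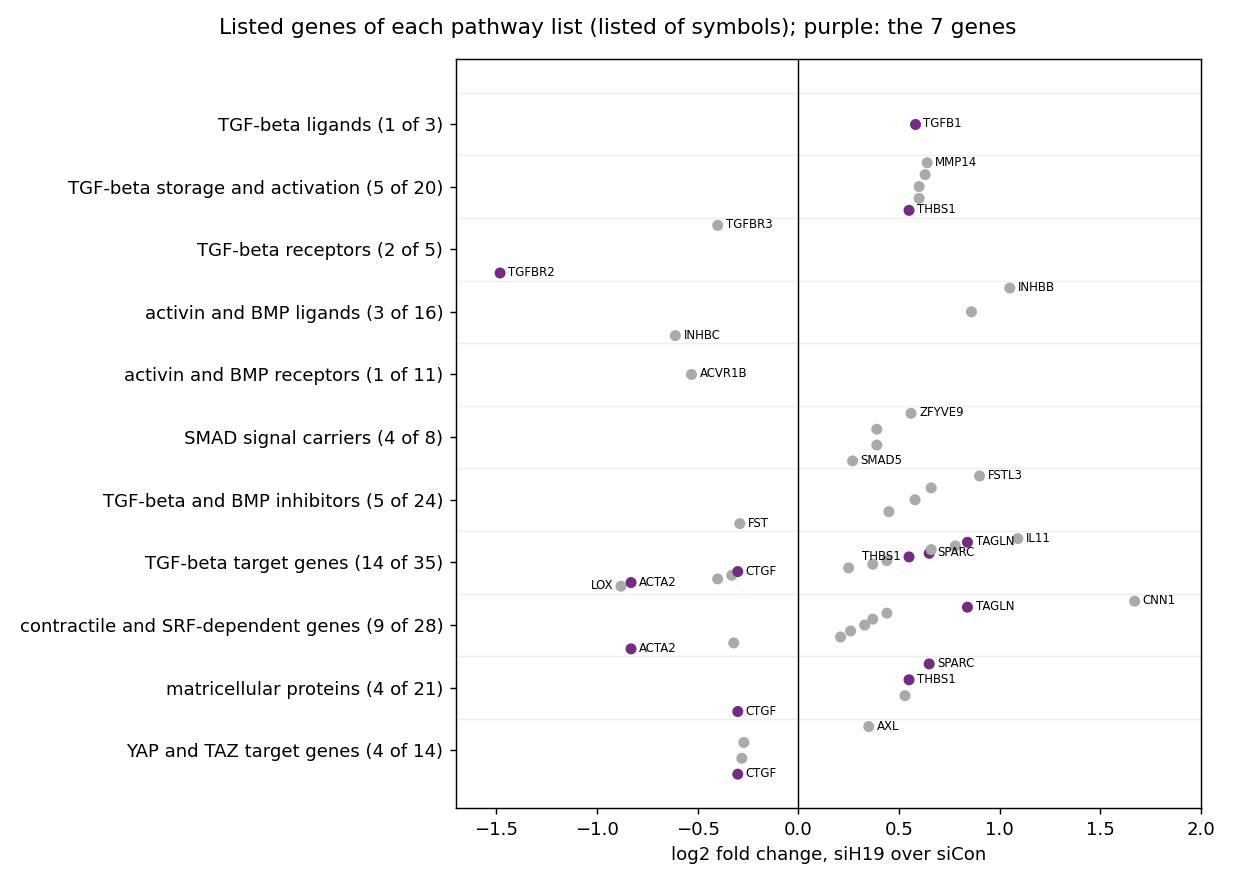
Log2 fold change, siH19 over siCon, of each listed gene in the 11 pathway lists, with the number of listed genes and of symbols beside each list name; purple points are the 7 genes, and the extremes of each list are named. Both listed TGF-beta receptors lie left of 0, all 4 SMAD carriers and all 5 storage and activation genes lie right of it, and the target genes fall on both sides. A gene in several lists is drawn in each.

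Of 5 TGF-beta receptor symbols 2 were listed, both lower. Besides TGFBR2, the authors' deposited table listed TGFBR3, betaglycan, a co-receptor that presents ligand to TGFBR2, at -0.40 ± 0.08 (SE). TGFBR3 had a normalized count of 6252 in siH19 and 8249 in siCon, so that the ratio of TGFBR3 to TGFBR2 counts was 1.91 in siH19 and 0.895 in siCon. The 1 listed activin or BMP receptor of 11 symbols was ACVR1B, the activin type I receptor ALK4, at -0.53 ± 0.11 (SE) in the authors' deposited table. TGFBR1, ENG and ACVRL1 were not among the listed genes.

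Of 20 symbols of genes that store, cleave or free the ligand 5 were listed, all higher, with a median of 0.60. They were THBS1, the integrin subunit ITGAV, which binds the latent complex (0.63 ± 0.10), the membrane protease MMP14 (0.64 ± 0.14), the convertase FURIN, which cleaves the precursor (0.60 ± 0.13), and the microfibril protein FBN1 (0.60 ± 0.22), all log2 fold changes ± SE in the authors' deposited table. FBN1 rests on a mean normalized count of 26.7, and its deposited SE is smaller than the 0.233 of counting error alone. TGFB1 was the only listed gene of the 3 TGF-beta ligands. Of 16 activin and BMP ligand symbols 3 were listed in the authors' deposited table: INHBB, a chain of activin B (1.05 ± 0.14), and GDF11 (0.86 ± 0.20) were higher, and the liver inhibin chain INHBC was lower (-0.61 ± 0.21, adjusted p 0.0289).

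Of 8 signal carrier symbols 4 were listed, all higher: SMAD2 and SMAD3, which carry the TGF-beta signal, both by 0.39 ± 0.09 (SE), the BMP carrier SMAD5 by 0.27 ± 0.10 and ZFYVE9, which brings SMAD proteins to the receptor, by 0.56 ± 0.09 in the authors' deposited table. ZFYVE9 overlaps CC2D1B, which was lower (-0.34 ± 0.12 in the authors' deposited table). SMAD5 had an adjusted p of 0.0479, near the authors' limit. SMAD4, the shared partner of the carriers, was not among the listed genes. Of 24 inhibitor symbols 5 were listed, 4 higher and 1 lower. The authors' deposited table gave FSTL3, which binds activin, at 0.90 ± 0.14, the SMAD repressor SKIL at 0.66 ± 0.09, the phosphatase PPM1A at 0.58 ± 0.09 and the decoy receptor BAMBI at 0.45 ± 0.12, with FST, another activin binder, at -0.29 ± 0.10 and an adjusted p of 0.0307.

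Target genes moved in both directions. Of 35 symbols 14 were listed, 9 higher and 5 lower, with a median of 0.41, and 5 of the 14 are members. In the authors' deposited table the ends of the range were IL11, a cytokine of fibrosis (1.09 ± 0.16), and the collagen crosslinker LOX (-0.88 ± 0.15), followed by TAGLN and ACTA2. Other higher targets in the authors' deposited table were ATF3 (0.78 ± 0.15), ID3 (0.44 ± 0.11), TPM1 (0.37 ± 0.09) and CDH2 (0.25 ± 0.09), and other lower ones were CDKN1A (-0.40 ± 0.08) and BHLHE40 (-0.33 ± 0.09). SMAD7, an inhibitory SMAD that the pathway induces, was not among the listed genes.

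Among the listed contractile genes ACTA2 was 1 of the 2 lower ones. Of 28 symbols of contractile and serum response factor (SRF) dependent genes 9 were listed, 7 higher and 2 lower. At an adjusted p under 0.01 in the authors' deposited table, 4 higher and 2 lower were left, without TPM4, CSRP1 and MYH9, and at a change of at least 1.5-fold 2 higher and 1 lower. CNN1, the actin-binding protein calponin, rose most, by 1.67 ± 0.20 (SE), 3.18-fold, in the authors' deposited table, at a low normalized count of 96.3 in siH19 and 30.1 in siCon. TAGLN followed, then MKL1, a coactivator of SRF, at 0.44 ± 0.11 in the authors' deposited table. The lower genes were ACTA2 and MYLK, the myosin light chain kinase, at -0.32 ± 0.10 in the authors' deposited table.

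Matricellular genes and YAP or TAZ targets give the setting of SPARC, THBS1 and CTGF. Of 21 matricellular symbols 4 were listed, and beside these 3 the authors' deposited table held SPP1, osteopontin, at 0.53 ± 0.09. Of 14 symbols of YAP and TAZ targets and partners 4 were listed, 1 higher and 3 lower. The authors' deposited table gave CTGF at -0.30 ± 0.09, the coactivator YAP1 at -0.28 ± 0.10 (adjusted p 0.0324) and its DNA-binding partner TEAD4 at -0.27 ± 0.09 (adjusted p 0.02), with the receptor kinase AXL higher at 0.35 ± 0.10. At an adjusted p under 0.01 CTGF was the 1 lower gene left, and at a change of at least 1.5-fold there was none.

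Promoters of 6 of the 7 genes, 250 bases before to 50 after the start, were matched in RefSeq (GRCh38.p14), and TAGLN was not. CTGF, THBS1, SPARC and 1 of the ACTA2 promoters carry matches for both the TEAD and the SMAD site. From these, CTGF and THBS1, which moved in opposite directions, are shown as examples. CATTCC, the core of the TEAD site, was searched on both strands and occurred 3 times in the CTGF promoter, at bases -169, -104 and -95. At least 3 matches were found in 0.128% of 35116 promoters and at least 1 in 14.0%. THBS1, SPARC and 1 of the ACTA2 promoters held 1 match each. CAGAC, the core of the SMAD-binding element, also searched on both strands, was in the CTGF, THBS1, SPARC and both ACTA2 promoters and in neither the TGFB1 promoter nor either TGFBR2 promoter, against 45.3% of all promoters. No match to the searched pattern of the CArG box, the site of SRF, was in these windows, against 1.29% of all promoters. Sites that depart from that pattern were not searched, and TAGLN had no promoter to search, so absence of SRF sites is not shown. The motifs do not share bases in the stretches shown, where capitals mark CAGAC and GGAATG, the reverse strand of CATTCC, and CTGF runs from 190 to 80 bases before the start and THBS1 from 120 to 30.
CTGF, chr6:131951452-131951562, minus strand: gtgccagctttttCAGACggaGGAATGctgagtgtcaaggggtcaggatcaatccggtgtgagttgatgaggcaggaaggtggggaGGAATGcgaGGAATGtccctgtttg
THBS1, chr15:39580959-39581049, plus strand: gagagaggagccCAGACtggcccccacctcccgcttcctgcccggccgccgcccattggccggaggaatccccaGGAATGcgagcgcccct

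Markers of cell types moved beside the members. The hepatocyte markers had 13 of 14 symbols listed, all 13 lower in siH19, against 55.3% of all listed genes. Their summed normalized count was 347401 in siH19 and 540118 in siCon. APOB alone gave 182812 of that sum in siH19 and 299044 in siCon. Of 13 stellate cell and fibroblast symbols the authors' deposited table held ACTA2 and NGFR (1.32 ± 0.12), and COL1A1, COL1A2, COL3A1, PDGFRB and DES were not listed; the listed pair summed to 976 counts in siH19 and 1056 in siCon. Of 8 bile duct symbols 4 were listed and higher, CD24 (1.20 ± 0.09), SOX4 (0.73 ± 0.12), SPP1 (0.53 ± 0.09) and PROM1 (0.40 ± 0.12) in the authors' deposited table, with summed counts of 12919 in siH19 and 8340 in siCon. The duct markers KRT7, KRT19, SOX9 and EPCAM were not listed. Of 8 endothelial symbols the authors' deposited table held LYVE1 (-0.98 ± 0.20), with 52.7 counts in siH19 and 105 in siCon. Of 8 blood cell symbols the authors' deposited table held CD68 (-1.21 ± 0.11) and LYZ (-0.64 ± 0.08), summing to 16759 counts in siH19 and 26484 in siCon. HepG2 is a single line, the part of these shifts in the members' changes was not tested, and in bulk RNA fewer cells expressing a gene and less RNA per cell cannot be told apart.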

How the data were processed

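RNA from 3 siH19 and 3 siCon HepG2 libraries was sequenced paired-end over 76 cycles, per the labels' protocols. The submitters' processing notes name DESeq2 1.0.0, Cufflinks 2.2.1 and STAR 2.5.0a, without role or order, and build hg19. The authors deposited 1 table of called genes with 1 log2 count per group and a mean count (a signal, not whole reads). It also holds a log2 fold change with its SE and a q-value (adjusted p-value), per the file headers. The headers do not call the counts normalized, and that word is the one used here for them. The annotation, normalization, any shrinkage, strand use in counting and each library's total are not given in the sources used here; depth is therefore unknown. No column held samples of another series.

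The planned limma or similar fit needed values per library, so no test was added. Linear counts are 2 to the power of the deposited log2 values. The fold change equalled siH19 minus siCon within 0.01. Members and lists were chosen with earlier results of these data known. Named genes are the 7, all listed genes of the ligand, activation, receptor, carrier and inhibitor lists, the 4 largest changes in the other pathway lists, listed markers of other cell types than hepatocytes, the 1 nearest gene to each member and listed genes that overlap one. ATF3, ID3, TPM1, CDH2, CDKN1A, BHLHE40, MYLK, TPM4, CSRP1, MYH9, HIPK3, CC2D1B, APOB and those of the closing observations were named after their values were seen. Of 1998 symbols 1975 matched GENCODE release 29 (GRCh38), by older symbols from RefSeq where needed, and 1915 had a 3' UTR in 1 transcript per gene, the best by APPRIS. Its coordinates were used only for overlaps. Word searches were tested on made-up sequences. Python 3.11.15, pandas 2.3.3 and numpy 2.4.6 were used.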

Additional observations from a re-analysis of the deposited data

How the results depend on the processing

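All 7 members kept their direction when recomputed from the group values or with 1 or 10 added to each count. Their fold changes stayed within 1 SE, the largest shift being 0.017. The deposited fold change equals the difference of the group values but for rounding, and the lowest group count of a member was 294 (SPARC in siCon). Neither recomputation could therefore have reversed a direction, so this is no support for the changes. All 7 passed an adjusted p under 0.01 and a mean count of at least 100. At a change of at least 1.5-fold, TAGLN and SPARC were the 2 higher members left, of 4, since TGFB1 and THBS1 lie just under that limit, and TGFBR2 and ACTA2 the 2 lower, of 3. At the same limit the pathway lists held 13 higher genes, of 30, and 4 lower, of 13. The 4 lower were TGFBR2, LOX, ACTA2 and INHBC. Without TAGLN and ZFYVE9, which overlap another listed gene, the lists held 28 higher and 13 lower. For single lists, 20 of 88 counts moved by over 1.5 times, among them the higher contractile genes (4, of 7) and the lower YAP and TAZ genes (1, of 3) at an adjusted p under 0.01, and none of the results reversed. No replicate could be left out and no paired analysis was possible because the table holds 1 combined value per group. Library depth is unknown. The deposited SE is under that of counting error alone for 56 of the 1998 listed genes, FBN1 and ITGAL among them.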

Other observations

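Genes close to the pathway that stand in none of the lists also moved, and they were picked after their values were seen. The authors' deposited table gave 0.65 ± 0.18 (SE) for TGFB1I1, a focal adhesion protein named for its induction by TGF-beta 1, with a mean normalized count of 84.9. It gave 0.63 ± 0.10 for SERPINE2, a secreted protease inhibitor. Among integrin subunits beside ITGAV, the authors' deposited table listed ITGB4 (0.93 ± 0.14) and ITGB2 (0.60 ± 0.19) as higher and ITGA2 (-0.29 ± 0.08), ITGA6 (-0.19 ± 0.07) and ITGAL (-0.70 ± 0.22) as lower. ITGAL rests on a mean normalized count of 18.0, and its deposited SE is smaller than the 0.286 that counting error alone would give.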
